A study of Drosophila melanogaster with 2 samples.

Results

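The genes described here encode 10 proteins of replication origin licensing: Mcm2, Mcm3, Mcm5, Mcm6, Mcm7, Orc1, Orc2, Orc5, Orc6 and double parked (dup). They were taken by name from 13968 protein-coding genes of the Ensembl annotation, and all 10 were found. The study mapped CG7372, a protein whose gene is named Phs in that annotation, by chromatin immunoprecipitation with sequencing (ChIP-seq) in whole Drosophila melanogaster embryos of 0 to 24 h. The embryos came from transgenic flies that carried CG7372 fused to eGFP, and chromatin sheared to 200 to 800 bp was pulled down with an antibody against GFP. There were 2 biological replicates of 1 group and no second condition, and no control library was analysed here. Whole embryos of that age mix all tissues and stages, so a peak is an average over them and cannot be given to dividing cells.

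Licensing makes a stretch of DNA ready to be copied once per cell cycle. The origin recognition complex (ORC), to which Orc1, Orc2, Orc5 and Orc6 belong, binds the DNA. Cdc6 and the fly Cdt1, encoded by dup, then help it load the ring-shaped MCM helicase, made of Mcm2, Mcm3, Mcm4 (dpa in the fly), Mcm5, Mcm6 and Mcm7. Geminin blocks Cdt1 after S phase has begun. Many of these genes are switched on by the transcription factor E2F as cells enter S phase, and the DNA replication-related element (DRE) is a second known element of fly replication promoters.

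The DNA of 3 start regions is shown first, because the values below refer to them: 2 lie at or beside a peak and 1 has none. A summit is the base at which the authors placed the top of a peak. The summit nearest to Mcm2 lay in the gap between Mcm2 and RPA1, the gene of the large subunit of replication protein A, which coats single-stranded DNA at the fork. The first line gives this gap from 50 bp before the summit to the last base before the Mcm2 start (chr3R:8264839-8264969, plus strand), with the summit base as the single capital. The second line gives the 150 bp before the start of Rnp4F (chrX:5322697-5322846, minus strand), beside which the peak counted for Mcm3 had its summit. Rnp4F encodes an RNA-binding splicing factor. Its capitals mark a DRE (TATCGATA) and the core promoter element motif 1 (GGTCACAC). The third line gives the whole gap between the starts of Orc5 and Arpc1, which encodes a subunit of the actin-nucleating Arp2/3 complex (chr2L:13829742-13829836, plus strand), with a DRE in capitals and no peak of any thresholded list. All are Release 6 (dm6) reference sequence from RefSeq, read 5′ to 3′.
Mcm2: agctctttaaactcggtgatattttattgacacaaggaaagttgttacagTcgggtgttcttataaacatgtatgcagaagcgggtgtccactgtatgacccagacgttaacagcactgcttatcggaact
Rnp4F: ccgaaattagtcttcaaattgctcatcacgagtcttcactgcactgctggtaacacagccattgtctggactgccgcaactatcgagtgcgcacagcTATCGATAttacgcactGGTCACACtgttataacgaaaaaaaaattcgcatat
Orc5: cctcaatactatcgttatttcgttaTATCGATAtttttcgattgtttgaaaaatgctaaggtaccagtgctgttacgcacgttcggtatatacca

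A short E2F form stood beside the start of most licensing genes, and it is shown because it is the sequence these promoters share. Any of 4 forms (TTTCCCGC, TTTCGCGC, TTTGGCGC, TTTGCCGC, on either strand) lay between 250 bp before and 50 bp after the outermost start of 7 of the 10 genes, namely Mcm2, Mcm3, Mcm5, Mcm6, Orc1, Orc5 and Orc6. Over all 13968 protein-coding promoters of the same length the share was 6.41%, or 896 promoters. Each line below gives 30 bases on the plus strand around the form of 1 gene, 11 to either side, with the form in capitals. The stretches are chr3R:8264995-8265024 for Mcm2, chrX:5323838-5323867 for Mcm3, chr3R:10788545-10788574 for Mcm5, chrX:6674389-6674418 for Mcm6 and chr2L:13829836-13829865 for Orc5.
Mcm2: ttagcaaacatTTTCCCGCgcattttcgca
Mcm3: cacactacgctTTTCCCGCgaaaaaacttt
Mcm5: cggtaattttgGCGGCAAAatattcgcaca
Mcm6: gtcagaaaaagGCGCCAAAaccgagcaaag
Orc5: agagggaataaTTTGGCGCcatttcaatgg

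The E2F forms were also close to each other in place. Counted from the start as position 0, with negative positions upstream, they began at 36 in Mcm2, -6 in Mcm3, 32 in Mcm5, 13 in Mcm6, 3 in Orc1, 10 in Orc5 and 14 in Orc6. All 7 therefore began between 10 bp before and 45 bp after the start, a span drawn around them after their positions were seen. Among the 896 protein-coding promoters with a form, 171 held one in that span, which is 1.22% of all promoters. Of 45 other replication genes described below, 16 (35.6%) had a form in the promoter and 11 (24.4%) had one in the span. A match of letters is a description and does not show that E2F was bound.

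**Figure D1:**
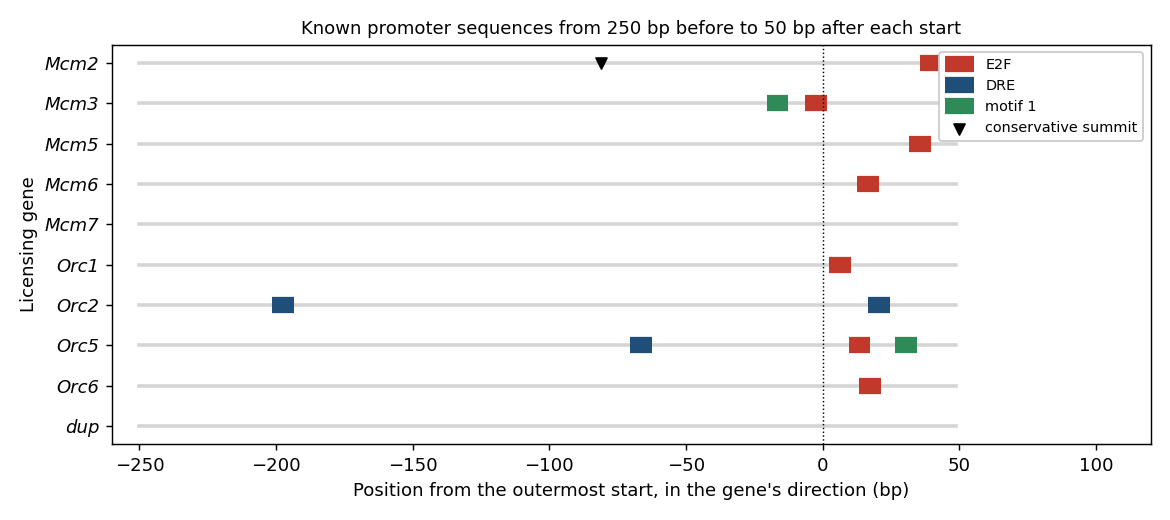
Known promoter sequences at the 10 licensing genes. The x axis is the position in bp from the outermost start in the direction of the gene, from 250 bp before to 50 bp after it, each row is a gene, coloured blocks are matches to E2F, DRE and motif 1 on either strand, and the triangle is the conservative summit at Mcm2, 81 bp before the start. E2F blocks cluster at the start in 7 genes, and Orc2 and Orc5 hold a DRE.

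Beside the E2F forms, a DRE lay in the promoters of Orc2, which held 2, and of Orc5, against 9.36% of all promoters. Motif 1 lay in those of Mcm3 and Orc5, against 7.69%. The E-box CACGTG and the GAGA sequence GAGAGAG matched none of the 10, against 4.20% and 5.86% of all promoters. The promoters of Mcm7 and of the outer start of dup held none of E2F, DRE or motif 1. In the 300 bp around the inner start of dup an E2F form began at position -22.

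Peaks of CG7372-eGFP stood at or near 3 of these 10 genes, about the share found over all protein-coding genes. The conservative thresholded list, which the authors made from both replicates and cut at an irreproducible discovery rate (IDR, the estimated chance that a peak does not repeat between the inputs compared) of 0.01, held 4594 peaks. It placed a summit inside or within 2000 bp of 3 of the 10 genes, Mcm2, Mcm3 and dup. Over all protein-coding genes the same call was made for 33.0%. A summit lay within 500 bp of an annotated start for 2 of the 10, Mcm2 and dup, against 16.7% of protein-coding genes. Both shares are close to those of the whole annotation, and they rest on 3 and 2 genes. Mcm5, Mcm6, Mcm7, Orc1, Orc2, Orc5 and Orc6 had no peak in any of the 4 thresholded lists.

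**Figure D2:**
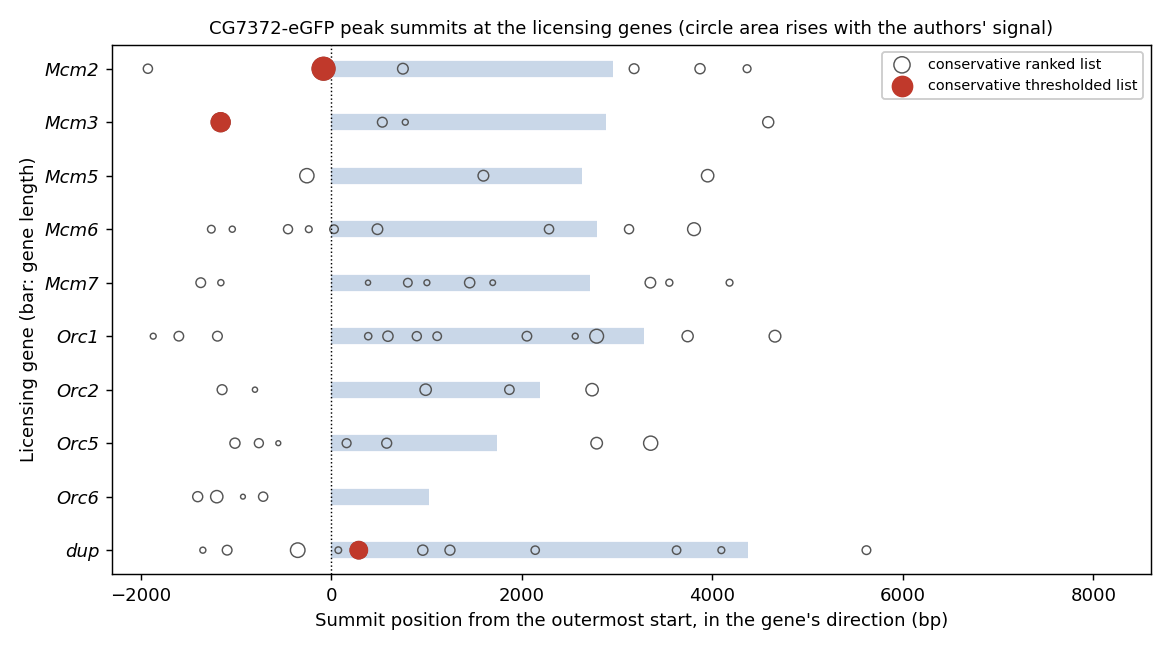
Summits at the 10 licensing genes in the conservative lists. The x axis is the summit's position in bp from the outermost start, in the direction of the gene, blue bars are the genes, open circles are peaks of the ranked list, filled circles are peaks of the thresholded list, and circle area rises with the authors' signal. The 3 filled circles stand at Mcm2, 1161 bp upstream of Mcm3 and at dup, among 71 open circles.

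The replicates gave similar counts. In the thresholded list of replicate 1, which held 2805 peaks, 1 of the 10 genes (dup) had a summit within 500 bp of a start, against 11.8% of protein-coding genes. In that of replicate 2, with 3081 peaks, it was 2 of the 10 (Mcm2 and dup), against 13.0%. The ranked lists also keep irreproducible peaks, 89959 in the conservative one, 54414 in replicate 1 and 58006 in replicate 2. They placed at least 1 summit inside or within 2000 bp of every one of the 10 genes, with 71, 34 and 54 peaks in all. Such a ranked peak was present for 93.9%, 93.0% and 92.5% of all protein-coding genes in the same 3 lists, so such a peak stands at nearly every gene.

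Mcm2, a subunit of the helicase ring, had the strongest peak of the group. The gene (FBgn0014861) lies on the plus strand at chr3R:8264970-8267924. The conservative peak ran from 8264719 to 8265058 with its summit at 8264889, in intergenic sequence 81 bp before the Mcm2 start. Its signal was 125.3 on the authors' own scale, which is not stated and is compared only within a list, and it ranked 1334 of 4594, above 71.0% of the list. The median signal of that list was 88.3. In replicate 2 the peak had a signal of 75.6 and ranked 880 of 3081, with its summit 13 bp away from the conservative one. In replicate 1 it had a signal of 49.4 and ranked 2292 of the 54414 ranked peaks, also 13 bp away, on the other side. It was not in the thresholded list of replicate 1, since its IDR there was 0.143. The peak was therefore high in the rank order of both libraries, and only replicate 2 passed it on its own.

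The Mcm2 summit cannot be given to Mcm2 alone. RPA1 starts on the other strand, 519 bp from the Mcm2 start, and the same summit lay 438 bp upstream of it. No known sequence of the 12 searched was found within 50 bp of the summit, and the E2F form shown above for Mcm2 lies inside the gene's 5′ UTR, outside that window.

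Mcm3, another subunit of the ring, had its only thresholded peak at the start of a neighbour. The gene (FBgn0284442) lies on the plus strand at chrX:5323855-5326738. The conservative summit, at 5322694, was 1161 bp upstream of the Mcm3 start and 2 bp inside the 5′ UTR of Rnp4F, which points the other way. The signal was 85.4 and the rank 2410 of 4594, below the median of the list. Both replicates held the peak in their thresholded lists, with a signal of 34.2 and rank 2715 of 2805 in replicate 1, and 46.0 and rank 1983 of 3081 in replicate 2. Replicate 1 had it near the end of its list and replicate 2 in the middle. The replicate summits lay 10 and 30 bp from the conservative one, on the Rnp4F upstream side and inside the sequence printed above. Motif 1 was the single known sequence within 50 bp of the conservative summit, against 0.631% of the 4593 summits on the chromosome arms. The DRE printed above for Rnp4F crosses the edge of that window and was not counted. It lies wholly within 50 bp of either replicate summit. At the Mcm3 start itself, where an E2F form and motif 1 lie, the ranked lists held 1 peak within 500 bp, in replicate 2, with a signal of 7.30 and rank 50420 of 58006. Just outside that distance, at 536 or 537 bp, every ranked list held a peak with a score far under 830. Its signal was 20.9 in the conservative list, 14.0 in replicate 1 and 8.08 in replicate 2.

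dup encodes the fly Cdt1, the loading factor that geminin inhibits. The gene (FBgn0000996) lies on the minus strand at chr2R:15376619-15380988 and has annotated starts at 15380988 and 15380614. The conservative peak had its summit at 15380699, between both starts, in the 5′ UTR of the longer transcript and 85 bp upstream of the inner start. It also lay 25 bp upstream of a start of SRPK, which encodes a kinase of SR splicing factors and is read from the plus strand. The signal was 70.9 and the rank 3131 of 4594, so that 31.8% of the list was weaker. Replicate 1 held it with a signal of 37.7 at rank 2694 of 2805, and replicate 2 with a signal of 40.7 at rank 2344 of 3081. Their summits fell 39 bp to one side and 21 bp to the other side of the conservative one.

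The region of dup and SRPK held further calls that differed between lists. Replicate 2 alone had a second thresholded peak, with its summit at 15381341, 353 bp upstream of the outer dup start in an intron of SRPK, a signal of 33.8 and rank 2867 of 3081. In the conservative ranked list the corresponding peak had a signal of 50.5 and a score of 218, under the threshold score of 830. In the series-level ranked list its score was 669, also under 830. The series-level thresholded list, the authors' second list over both replicates with 4782 peaks, added a peak with its summit at 15380914, 74 bp inside the outer start. Its signal was 7.68 and its rank 4647. Only the peak at 15380699 was in all 4 thresholded lists.

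Of the 3 conservative peaks at licensing genes, 2 overlapped thresholded peaks of both replicates, those at Mcm3 and dup. Over the whole list the share was 46.8%. Both genes with a summit at a start shared it with another protein-coding gene, RPA1 or SRPK. Among all protein-coding genes with such a summit, 59.8% shared it. Divergent neighbours, with starts within 1000 bp on opposite strands, were present for 6 of the 10 genes, namely Mcm2, Mcm5, Mcm6, Orc2, Orc5 and dup, against 36.5% of protein-coding genes. A start-site summit was found for 2 of these 6, against 30.0% of all divergent genes, and for 0 of the other 4, against 9.05% of all other genes.

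Among the helicase genes with no thresholded peak, Mcm5 had the ranked peak of highest signal. The gene lies on the plus strand at chr3R:10788524-10791150, 298 bp from the start of Art1, an arginine methyltransferase gene that points the other way. The conservative ranked list held a peak 256 bp upstream of Mcm5, and 42 bp upstream of Art1, with a signal of 48.7 at rank 5873 of 89959, an IDR of 0.662 and a score of 74, far under 830. Replicate 1 gave it 32.2 at rank 4676, and replicate 2 gave 11.9 at rank 30215. The libraries therefore placed it far apart in their order. Mcm6 (chrX:6674387-6677176, plus strand) had 25.1 at rank 28187 as its strongest ranked start-site peak and 14.2 in replicate 1. In replicate 2 it had none within 500 bp of the start, and the nearest, with a signal of 11.1, lay at 590 bp. Mcm7 (chr3L:8891596-8894310, plus strand) had 3.36 at rank 87211 in the conservative ranked list and no start-site peak in either replicate. The strongest ranked peak within 2000 bp of Mcm6, with a signal of 38.7, lay at the start of ND-ASHI, which encodes a subunit of mitochondrial complex I. By score it stood above the Mcm5 peak, at 296 in the conservative and 431 in the series-level ranked list.

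None of the 4 ORC genes had more than a weak ranked peak at its start. Orc1, an ATPase subunit (chr2R:7522437-7525716, minus strand), had 10.1 at rank 72834 in the conservative ranked list, 11.2 in replicate 1 and 11.5 in replicate 2. Its strongest peak, 45.2 at rank 6784, lay in the coding sequence 2786 bp past the start. The IDR of that peak was 0.116 in the conservative and 0.717 in the series-level ranked list, and those of the replicates were 0.777 and 0.609. Orc5 (chr2L:13829837-13831576, plus strand) had 16.7 in the conservative ranked list and no peak within 500 bp in either replicate, although its start lies 96 bp from that of Arpc1. Replicate 1 had a peak at 556 bp, with a signal of 12.4. Orc2 (chr3R:13964885-13967075, plus strand) and Orc6 (chr2R:9845458-9846485, minus strand) had no peak within 500 bp of the start in any of the 4 ranked lists. Such a peak was listed for 55.6% to 71.3% of all protein-coding genes, depending on the list. For Orc6 the absence depends on the cut, as replicate 2 had a peak at 501 bp, with a signal of 13.3 and rank 24706 of 58006. The strongest ranked peak near Orc2 was 35.9, in the 3′ UTR of the neighbour rdx. That near Orc6 was 35.4, in an intron of the proteasome gene Prosalpha7 and 149 bp past its start. That near Orc5 was 47.8, at the start of PolG2, the accessory subunit of mitochondrial DNA polymerase. In the series-level ranked list this peak had a score of 696, and another near Orc5, in the coding sequence of Arpc1 with a signal of 17.3, had 760. In the conservative ranked list the same peaks scored 150 and 64. The closest overlapping peaks scored 572 and 175 in replicate 1, and 110 and 445 in replicate 2. All of these are under the threshold score of 830. Neither the PolG2 peak nor the Arpc1 peak lay within 500 bp of the Orc5 start.

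**Figure D3:**
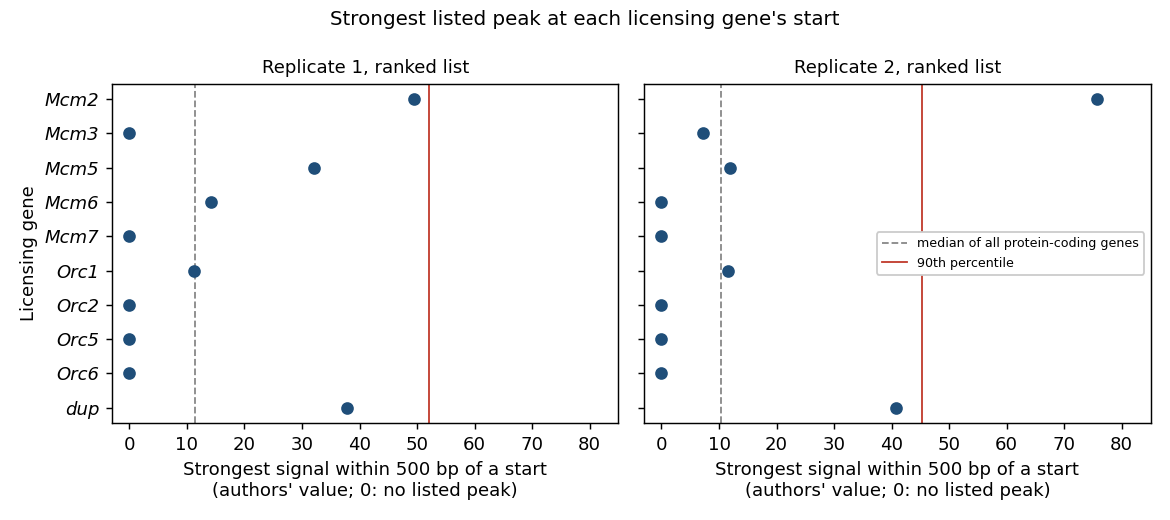
Strongest ranked peak within 500 bp of a start of each licensing gene in replicate 1 (left) and replicate 2 (right). The x axis is the authors' signal, with 0 where no peak was listed, and lines mark the median and the 90th percentile of all 13968 protein-coding genes. Mcm2 and dup stand highest in both replicates, and only Mcm2 in replicate 2, at 75.6, passes the 90th percentile.

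Set against every protein-coding gene by this strongest start-site signal, Mcm2 was above 89.4% of genes in replicate 1 and 94.9% in replicate 2. dup was above 85.8% and 88.6%, and Mcm5 above 83.1% and 54.5%. Orc1 was above 49.6% and 53.4% of genes, where a gene with no listed peak counted as 0. Its signals of 11.2 and 11.5 were below the medians of genes with a peak, 21.0 and 17.6. The signal of Mcm5 in replicate 2, 11.9, was also below that median. Orc2, Orc5, Orc6 and Mcm7 had no start-site peak in either replicate. Such a peak was listed for 5 of the 10 genes in each replicate, against 55.6% and 59.4% of all protein-coding genes. The median over the 10 genes was 5.58 in replicate 1, where it was 11.4 over all genes, and 3.65 in replicate 2, where it was 10.4. In each replicate 4 of the 10 lay above the median of all genes. Mcm2, dup and Mcm5 were among them in both, while the fourth was Mcm6 in replicate 1 and Orc1 in replicate 2. These medians and counts depend on the 500 bp cut, since a gene with no peak inside it counted as 0. Peaks just outside it, above the median of all genes, stood at Mcm3 (14.0 at 537 bp) and Orc5 (12.4 at 556 bp) in replicate 1. In replicate 2 one stood at Orc6 (13.3 at 501 bp). The same cut was applied to all genes.

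The distance from a start to the nearest conservative summit was 81 bp for Mcm2, 85 bp for dup and 1161 bp for Mcm3. For the 7 genes without a thresholded peak it ran from 3769 bp at Orc1 to 14671 bp at Orc6. The median was 4653.5 bp over the 10 genes and 7392 bp over all genes on arms with a peak. A very strong peak can stand close by and still fall outside the 2000 bp call. The nearest summit to Orc5, 5622 bp away at CenG1A, had a signal of 1027 and ranked 14 of 4594. That nearest to Mcm6, 4985 bp from the start and near ND-ASHI, had a signal of 307. Its position, 6679372, is only slightly more than 2000 bp past the gene's end at 6677176, and no wider gene distance was tried.

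Other genes of DNA replication were read from a list of 45 written with earlier results of these data known, and all 45 were matched to the annotation. A conservative summit lay within 500 bp of a start for 10 of them, or 22.2%, beside the 16.7% of all protein-coding genes. Among 8 other genes of the pre-replicative complex and its regulators there was 1, dpa, which encodes Mcm4. Its peak had a signal of 141 at rank 1103, 81 bp upstream of the start, and was thresholded in both replicates (81.6 in replicate 1, 57.6 in replicate 2). The start is shared with didum, a myosin gene. Among the helicase genes, dpa and Mcm2 thus carried the start-site summits. Orc3, Orc4, Cdc6 and geminin, with the remaining genes of that group, had none.

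Among 10 genes of origin firing, 3 had a start-site summit. Cdc7 and chif encode the kinase that fires licensed origins and its activating partner, the fly Dbf4. Their peaks had signals of 76.1 (rank 2873) and 82.4 (rank 2544), and each was thresholded in replicate 1 and not in replicate 2. Ctf4, which encodes a replisome adaptor, had a signal of 75.7 (rank 2890) and was thresholded in replicate 2 and not in replicate 1. All 3 signals were below the median of the list.

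Among 27 genes of the replication fork, 6 had a start-site summit. CG8142, annotated as a subunit of the clamp loader, had the highest of these start-site signals, 365 at rank 190. RnrS, the small subunit of ribonucleotide reductase, had 273 at rank 348, and PolD2, a subunit of DNA polymerase delta, had 266 at rank 358. These 3 were thresholded in both replicates, as was PolE4, a subunit of DNA polymerase epsilon, with 94.6 at rank 2059. PCNA2, a second sliding clamp gene, had 91.5 at rank 2190 and was thresholded in replicate 2 alone. RPA1 shares its summit with Mcm2. Of the 10 start-site summits at these other replication genes, 9 lay at starts shared with another protein-coding gene, and 5 were thresholded in both replicates. Among all protein-coding genes with a start-site summit, 59.8% shared it, and 46.8% of all conservative peaks overlapped thresholded peaks of both replicates. The 10 summits lay between positions -438 and 30 from the start.

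**Figure D4:**
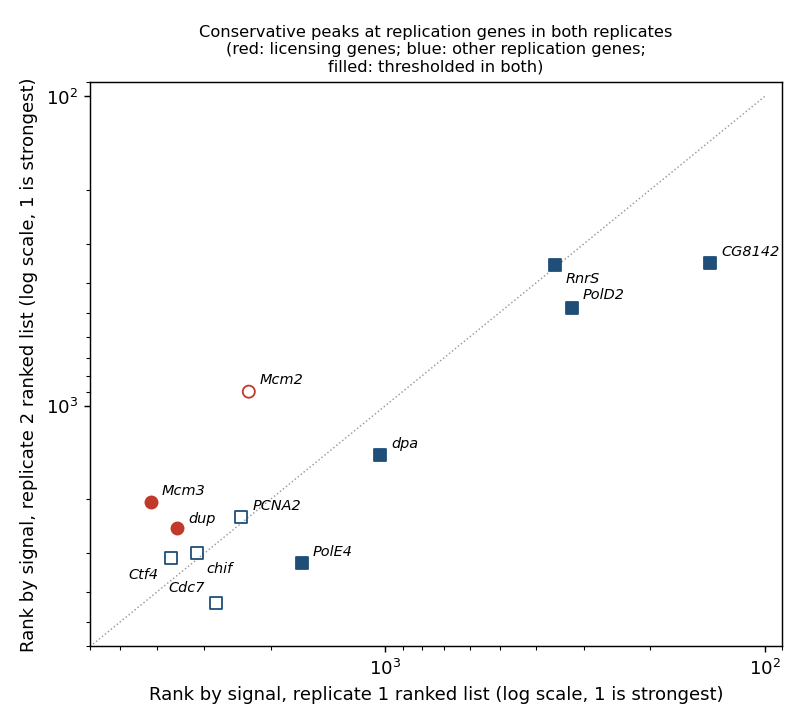
Ranks of the conservative peaks at licensing genes (red circles) and at other replication genes (blue squares) in the ranked lists of both replicates. Both axes are ranks by signal on a log scale with the strongest at the top and right, filled symbols were thresholded in both replicates, and the dotted line marks equal ranks. CG8142, RnrS and PolD2 stand at the strong end, and the peak at Mcm2 ranks 901 in replicate 2 and 2292 in replicate 1.

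E2F forms in a promoter and CG7372-eGFP summits at the start were found together at 1 or 2 licensing genes, depending on the search. These are too few to compare with the shares elsewhere. With E2F forms searched at every annotated start, as summits were counted, 8 of the 10 genes had a form, and 2 of these (Mcm2 and dup) had a start-site summit, or 25.0%. For the other replication genes it was 4 of 17, or 23.5%, and over all protein-coding genes 288 of 1212, or 23.8%. This count was added after the values were seen. A search at the outermost start alone, which leaves out the form at the inner start of dup, gave 1 of 7 licensing genes (Mcm2), or 14.3%. For other replication genes it gave 3 of 16, or 18.8%, and for protein-coding genes 173 of 896, or 19.3%. Over the 1419 genes with a DRE at any annotated start, 342 had a start-site summit, or 24.1%. Neither licensing gene with a DRE, Orc2 or Orc5, had one.

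The leading words of earlier work on these same data were absent at the peaks of the licensing genes. Within 50 bp of the conservative summits, CATACGCC lay at 9.01% of the 4593 peaks, GCGTATAC at 8.88%, CGCATACG at 7.84% and the short word CGTAT at 30.8%. None of the 4 lay in the windows at Mcm2, Mcm3 or dup. Since the words were found on these peaks, their shares are no independent result, and 3 windows are too few to read an absence from. No E2F form lay in the 3 windows either, against 1.44% of all windows. The E2F form at the inner start of dup lies outside the window of the conservative summit. It is within 50 bp of the replicate 2 summit of the same peak.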

How the data were processed

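The labels give 2 biological replicates of 1 group. The authors deposited a ranked and a thresholded peak list per replicate and 2 such pairs for the series, made from both replicates per the file headers. They are on build dm6, per the labels, and which aligner and peak caller were used is not given in the sources used here. Signal is the authors' value per peak, on an unstated scale. The deposited score follows the IDR, with 830 as the lowest in each thresholded list. The −log10 of the IDR in the deposited ranked lists gave the IDR. Depth is unknown, as the files hold no read counts.

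Peaks on the chromosome arms were assigned by summit to genes of Ensembl release 115, whose member coordinates matched RefSeq Release 6, with Python 3.11.15, pandas 2.3.3, numpy 2.4.6 and pyfaidx 0.9.0.4. Windows were 2000 bp around genes and 500 bp around starts of any annotated transcript. Replicate support needed 1 shared bp. The assignment recovered 111 of 111 planted starts in a test on simulated data. The text names all 10 licensing genes, the partners at shared summits and each wider-list gene with a start-site peak. Neighbours and other list genes were named after their values were seen. The members and lists were chosen with earlier results of these data known. No test between groups was possible, and no p-value is given. Alternatives were 11 settings of list, replicate and distance.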

Additional observations from a re-analysis of the deposited data

How the results depend on the processing

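The counts for the 10 licensing genes rest on 3 peaks, and single settings move them. Leaving out each replicate in turn gave 2 to 3 genes with a peak inside or within 2000 bp (3 with both), 1 to 2 with a start-site peak (2), 2 to 4 peaks (3), 1 to 2 shared starts (2) and 7 to 8 other replication genes with a start-site peak (10). The lower values came without replicate 2, which lost Mcm2. With peaks at or above the median signal, only Mcm2 was left: 1 gene within 2000 bp, 1 at a start, 1 peak, 0 peaks found in both replicates and 1 shared start. A start distance of 200 bp left 1 shared start, since RPA1 starts 438 bp from the Mcm2 summit. A gene distance of 1000 bp or of 500 bp lost the peak at Rnp4F counted for Mcm3, so that 1 peak in both replicates remained. A window of 100 bp to either side of the summits held 3 known sequences in place of 1. The DRE at Rnp4F and the E2F form at the inner start of dup lie inside this wider window. With E2F forms searched at every annotated start, a setting added after seeing the data, 2 licensing genes in place of 1 had both a form and a start-site peak. The series-level list, a start distance of 1000 bp, outermost starts, a reciprocal overlap and peak midpoints gave no count outside 1.5 times the main value. For the 7 genes without a thresholded peak, weak binding was not detectable apart from irreproducible peaks, and the depth is unknown. No paired analysis was possible because the design has 1 group.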

Other observations

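The peak at Mcm2 was stronger in replicate 1 than those at Mcm3 and dup (signals of 49.4, 34.2 and 37.7), yet it was left out of the thresholded list of that replicate while the others were kept. Of the 2292 peaks of replicate 1 with at least its signal, 2202 (96.1%) passed the score of 830 and 90 did not.

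The weak series-level peak inside dup, with a signal of 7.68 and the highest score of 1000, overlapped the stronger peak beside it. In the series-level thresholded list 293 of 4781 peaks on the arms (6.13%) overlapped a stronger peak of the same list, and 228 of these had a signal under 20.

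A further 4 of the 45 other replication genes had a conservative summit inside or within 2000 bp and none at a start. At PolD1, the catalytic subunit of DNA polymerase delta, the summit had a signal of 823 at rank 27 and lay at the starts of Arl1 and brm. At PCNA, the sliding clamp, the summit had a signal of 79.1 at rank 2706 and lay 1085 bp upstream, at the starts of RpS18 and plu. Those at PolE1 (103) and Psf3 (65.6) lay in introns of Sec13 and flw.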
